A study of Mus musculus with 8 samples.

Results

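The circadian clock genes described here are 10 mouse genes taken by their symbols, Per1, Per2, Per3, Dbp, Tef, Nr1d1, Nr1d2, Arntl, Cry1 and Cry2. All 10 were found, once each, among the 31053 genes of the deposited matrices, and all 10 passed the filter on low counts that left 15810 genes for testing. They were measured by single-cell RNA-seq in SN4741, a clonal line labelled as wild-type neural precursor cells. The line was derived from substantia nigra of mouse embryos that carry a temperature-sensitive SV40 T antigen under the tyrosine hydroxylase promoter, and its karyotype is polyploid and unstable. There were 4 libraries from cells kept at 37 °C, the permissive temperature, in medium with 10% fetal bovine serum. The other 4 libraries came from cells that were given medium with 0.5% serum 24 hours after passage and were then held at 39 °C, the non-permissive temperature, for 48 hours. Temperature, serum and the replacement of the medium came together and cannot be told apart. The time from passage to harvest is not given for the 37 °C libraries, so a difference in it cannot be told apart from these. The labels give no time of day for harvest, so a shift in the phase of a rhythm and a change in its mean level cannot be told apart either. They do not say whether the libraries came from separate cultures, so the p-values measure only the spread between these libraries, which may be technical.

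The mammalian clock is a loop of transcription factors and their own inhibitors. Arntl (BMAL1) pairs with CLOCK on E-box sequences and switches on the Per and Cry genes, whose proteins then block that pair. In further loops, the nuclear receptors Nr1d1 and Nr1d2 (REV-ERBα and REV-ERBβ) repress Arntl through ROR response elements, while Dbp and Tef, PAR-type bZIP factors, act on D-boxes. In cultured cells the loops run in single cells and drift apart, unless a stimulus such as fresh serum, glucocorticoid or a change of temperature sets them together.

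After cells with over 15% mitochondrial counts, under 200 or over 6000 detected genes were left out, 18351 of 19125 cells remained. Libraries held 985 to 3494 kept cells and 17166686 to 29633818 UMIs (unique molecular identifiers, which count captured transcript molecules), with 39 °C replicate 1 holding the fewest cells and the most UMIs per cell. Pairs of libraries shared at most 5 cell barcodes. The median mitochondrial share per library was 7.55 to 7.89% at 37 °C and 8.04 to 8.85% at 39 °C. Of the 7 neural precursor markers checked, Vim, Nes, Notch1 and Sox2 were abundant in both groups, but not at equal levels. In all kept cells at 37 and 39 °C, Nes had 52352 and 10712 UMIs and Notch1 had 24628 and 46138. Vim had 604063 and 504873 UMIs and Sox2 had 6210 and 7507, while Pax6 had 2 and 1 and Fabp7 had 3 and 3. Neuronal Dcx, oligodendrocyte Olig2 and Sox10 and endothelial Cdh5 were at 0 UMIs in all libraries. The mesenchymal genes Col1a1 and Col1a2 were abundant. Of 8 mesenchymal markers, 7 passed the filter on low counts. The summed level of these 7 was 2003 to 2090 CPM at 37 °C and 773 to 814 CPM at 39 °C, without overlap. The part of these markers and of the mitochondrial share in the clock gene results was not tested.

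The promoter stretches below are shown because they hold letters of elements that clock factors are known to bind, and members with the same letters can be followed through the results. RefSeq windows from 250 bases before to 50 bases after a transcription start (GRCm38.p6) were present for 9 members in 12 windows, and not for Per2. Both strands were searched for the E-box CACGTG, the D-box TTATGTAA or its reverse complement TTACATAA, the ROR element core TAGGTCA, the cyclic AMP response element TGACGTCA and the heat shock element. In the lines that follow, capitals mark the matching letters and each sequence is given 5′ to 3′ on the strand of its gene.
Per1, in an intron, chr11:69098756-69098815, plus strand, E-box: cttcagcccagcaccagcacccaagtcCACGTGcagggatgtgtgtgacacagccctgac
Tef, in a UTR of 1 isoform, chr15:81802535-81802563, plus strand, E-box: tgctgtggctcCACGTGctgcagctggca
Tef, at a second start, in an intron, chr15:81811249-81811308, plus strand, E-box: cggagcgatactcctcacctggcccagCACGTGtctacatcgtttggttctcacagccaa
Cry1, upstream of the gene, chr10:85185082-85185141, minus strand, E-box: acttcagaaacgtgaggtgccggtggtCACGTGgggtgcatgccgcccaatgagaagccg
Per3, upstream of the gene, chr4:151044789-151044897, minus strand, D-box at both places: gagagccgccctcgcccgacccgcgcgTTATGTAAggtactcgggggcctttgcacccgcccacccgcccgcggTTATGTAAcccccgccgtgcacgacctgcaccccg
Arntl, in a UTR, chr7:113207530-113207558, plus strand, ROR element core: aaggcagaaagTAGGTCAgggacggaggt

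The E-box letters were in windows of 3 members, Per1, Tef and Cry1. That was 4 of the 12 member windows, beside 7.15% of all 32851 promoter windows of this length. The D-box letters were in 1 member, Per3 (1 of 12 member windows), where both matches lie upstream of the start (205 and 158 bases). They were in 0.938% of all windows. The ROR element core was in 1 member, Arntl (1 of 12 member windows), 30 bases after the start, and in 2.61% of all windows. The cyclic AMP response element (1.79% of all windows) and the heat shock element (0.603%) were in 0 of the member windows. A match describes the letters in these windows and not the binding of a factor.

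Comparing the temperatures over all kept cells asked whether the clock genes change when SN4741 cells are moved to the differentiating condition. Of the 10 members, 8 were higher at 39 °C (Per2, Per3, Dbp, Tef, Nr1d1, Nr1d2, Arntl and Cry1) and 0 were lower, at an adjusted p under 0.05 from edgeR's quasi-likelihood test on UMI counts summed per library. In this comparison 62% of all tested genes were called, 31.5% higher and 30.5% lower. The 8 members also did not overlap between the temperatures, against 28.7% of all tested genes that did so upwards. The median log2 fold change (39 °C over 37 °C) was 0.65 over the members, which ranged from 0.12 to 1.30, and 0.02 over all tested genes. Under a stricter rule, which asks for an adjusted p below 0.01 together with a log2 change beyond 1.5 either way, 0 members and 5.83% of genes were called. Levels are given as CPM, UMIs per 1000000 UMIs of tested genes with TMM-scaled library totals, for replicates 1 to 4 in turn and then as mean ± SD (n = 4). They are counts from 3′ ends and are not compared between genes.

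**Figure D1:**
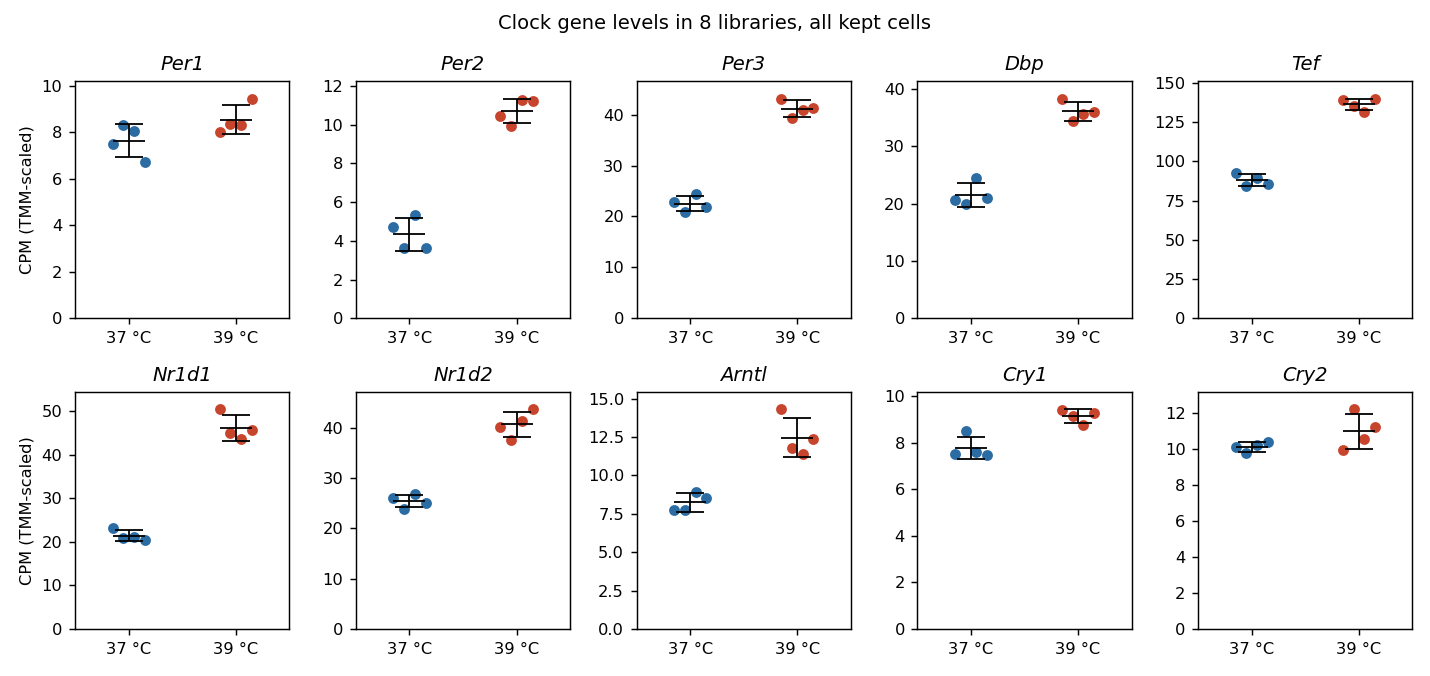
Level of each clock gene (CPM, TMM-scaled, linear axis from 0) in the 4 libraries at 37 °C (blue) and the 4 at 39 °C (red), over all kept cells, with bars for the mean and SD. The groups are apart for 8 genes and overlap for Per1 and Cry2.

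The period genes Per1, Per2 and Per3 encode the inhibitors that build up and shut off the BMAL1 and CLOCK pair. Per2 (ENSMUSG00000055866, chr1:91415982-91459324, minus strand) was at 4.73, 3.60, 5.33 and 3.65 CPM at 37 °C and at 10.4, 9.96, 11.3 and 11.2 CPM at 39 °C. Every library at 39 °C lay above every library at 37 °C, with means of 4.33 ± 0.845 and 10.7 ± 0.632 CPM (log2 fold change 1.30 ± 0.10 SE, adjusted p = 2e-09). This was the member with the highest log2 fold change, and it rests on 487 UMIs at 37 °C and 1056 at 39 °C. Per3 (ENSMUSG00000028957, chr4:151003652-151044665, minus strand) was at 22.8, 20.9, 24.4 and 21.8 CPM at 37 °C and at 43.2, 39.3, 41.0 and 41.4 CPM at 39 °C. These groups were also apart, and Per3 rose by 0.87 ± 0.05 SE on the log2 scale (adjusted p = 4.2e-11), a 1.83-fold change. Per1 (ENSMUSG00000020893, chr11:69095217-69109960, plus strand), a period gene that answers quickly to glucocorticoid and cyclic AMP signals, was at 7.51, 8.29, 8.06 and 6.71 CPM at 37 °C and at 8.00, 8.37, 8.32 and 9.44 CPM at 39 °C. Its groups overlapped and it did not pass the test (log2 fold change 0.17 ± 0.08 SE, adjusted p = 0.095). Per1 did pass when cells with over 5000 genes were left out (0.23, adjusted p = 0.035).

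Dbp and Tef, transcription factors that carry the rhythm to genes of metabolism and detoxification, both rose. Dbp (ENSMUSG00000059824, chr7:45705088-45710203, plus strand) was at 20.6, 19.9, 24.5 and 21.0 CPM at 37 °C and at 38.4, 34.4, 35.7 and 36.0 CPM at 39 °C. The groups did not overlap, and the change was 0.74 ± 0.06 SE on the log2 scale (adjusted p = 2.9e-09). Tef (ENSMUSG00000022389, chr15:81802421-81826863, plus strand) was at 92.6, 84.5, 89.4 and 85.4 CPM at 37 °C and at 139, 135, 132 and 140 CPM at 39 °C. The lowest library at 39 °C was well above the highest at 37 °C, and the log2 fold change was 0.63 ± 0.05 SE (adjusted p = 4.6e-10). Tef had more UMIs than any other member, 9861 at 37 °C and 13356 at 39 °C.

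The REV-ERB receptors, repressors of Arntl, rose as well. Nr1d1 (ENSMUSG00000020889, chr11:98767932-98775333, minus strand) was at 23.2, 20.9, 21.0 and 20.3 CPM at 37 °C and at 50.4, 44.9, 43.6 and 45.5 CPM at 39 °C. It was 2.15-fold higher at 39 °C without overlap (log2 fold change 1.10 ± 0.06 SE, adjusted p = 2.6e-12). Nr1d2 (ENSMUSG00000021775, chr14:18204054-18239127, minus strand) was at 26.1, 23.9, 26.8 and 25.0 CPM at 37 °C and at 40.2, 37.6, 41.3 and 43.7 CPM at 39 °C. It was 1.60-fold higher, again without overlap (log2 fold change 0.68 ± 0.05 SE, adjusted p = 2.2e-09).

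Arntl, the activator that the REV-ERB receptors repress, moved in the same direction as they did. Arntl (ENSMUSG00000055116, chr7:113207465-113314126, plus strand) was at 7.75, 7.71, 8.94 and 8.53 CPM at 37 °C and at 14.3, 11.8, 11.4 and 12.3 CPM at 39 °C. The groups were apart and the log2 fold change was 0.58 ± 0.08 SE (adjusted p = 3.1e-06), so the activator and both of its repressors were higher in the same libraries. The cryptochromes Cry1 and Cry2, partners of the PER proteins in inhibition, had, with Per1, the lowest log2 fold changes. Cry1 (ENSMUSG00000020038, chr10:85131700-85185064, minus strand) was at 7.51, 8.49, 7.61 and 7.48 CPM at 37 °C and at 9.42, 9.16, 8.74 and 9.25 CPM at 39 °C. It rose by 0.23 ± 0.07 SE on the log2 scale (adjusted p = 0.009), and with 985 cells drawn from each library the change was 0.25 with an adjusted p of 0.0559. Cry2 (ENSMUSG00000068742, chr2:92403646-92434043, minus strand) was at 10.1, 9.77, 10.2 and 10.4 CPM at 37 °C and at 9.93, 12.2, 10.5 and 11.2 CPM at 39 °C, which overlapped (log2 fold change 0.12 ± 0.07 SE, adjusted p = 0.14).

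Some members share genomic sequence with another gene. Nr1d1 overlaps 1075 bases of Thra, a thyroid hormone receptor gene on the opposite strand, and Thra rose by a like amount (100 ± 5.87 to 208 ± 3.11 CPM, log2 fold change 1.05 ± 0.05 SE, adjusted p = 5.7e-13). Dbp overlaps 737 bases of Sphk2 on the opposite strand, and Sphk2 overlapped between the temperatures (11.7 ± 0.576 and 13.2 ± 0.898 CPM, log2 fold change 0.17 ± 0.07 SE, adjusted p = 0.031). Tef, Arntl and Cry2 overlap less studied transcripts on the opposite strand. The sources used here do not state whether the counting used strand, so reads of Nr1d1 and Thra, and of Dbp and Sphk2, are uncertain where the genes overlap. Per3 lies inside Camta1 on the same strand (41014 bases), so strand could not tell their reads apart and these are uncertain too. All these overlaps are of whole gene spans, and whether the exons overlap was not checked. Camta1 moved the other way (log2 fold change -0.52 ± 0.08 SE, adjusted p = 7.8e-06).

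The cell cycle make-up of the libraries differed, so the temperatures were also compared within phases assigned to each cell from S and G2M marker genes, none of which is a clock member. Cells assigned to G1 were 24.1% ± 3.41 (SD, n = 4) at 37 °C and 84.3% ± 1.22 at 39 °C, those in S were 40.5% ± 2.52 and 11.3% ± 0.721, and those in G2M were 35.5% ± 1.36 and 4.43% ± 1.06. The shares depended on the scoring. With phases scored within each library, G1 was 40.2% ± 2.21 at 37 °C and 55.9% ± 2.23 at 39 °C, S was 29.8% ± 1.95 and 28.5% ± 0.643, and G2M was 29.9% ± 0.882 and 15.7% ± 2.59. With control genes for the scores taken from genes found in at least 3 cells, a setting added after the data were seen, G1 was 21.97% and 82.1%. Within G1 cells, 8 of 10 members were higher at 39 °C, the same 8 as over all cells, and 0 were lower, where 47.1% of 14712 tested genes were called, 24.8% higher and 22.4% lower. The median log2 fold change of the members was 0.47, against 0.04 over all genes tested in G1 cells. Within G1 the summed level of 6 proliferation markers still differed, at 132 to 150 CPM at 37 °C and 57.5 to 63.3 CPM at 39 °C, and its part in the clock gene results was not tested.

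Nr1d1 and Per2 again had the highest log2 fold changes in G1 cells. Nr1d1 was at 28.1, 28.1, 25.7 and 26.1 CPM at 37 °C and at 54.2, 47.0, 46.3 and 48.7 CPM at 39 °C in G1 cells (log2 fold change 0.85 ± 0.07 SE, adjusted p = 8.4e-10). Thra rose in G1 cells too, by 0.79 ± 0.06 SE. Per2 was at 7.65, 3.35, 6.38 and 4.02 CPM at 37 °C, a wide spread on only 133 UMIs, and at 10.9, 10.6, 12.2 and 12.04 CPM at 39 °C (1.05 ± 0.16 SE, adjusted p = 7e-06). Both genes were apart between the temperatures in G1 cells.

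Cry1 stood lower in G1 cells at 37 °C than in all cells, at 6.69, 5.95, 4.48 and 6.40 CPM, and was at 9.34, 9.21, 8.68 and 9.17 CPM in G1 cells at 39 °C. Its log2 fold change in G1 was 0.62 ± 0.13 SE (adjusted p = 3e-04), beside 0.23 over all cells. Dbp and Tef had smaller log2 fold changes in G1 than over all cells, 0.27 ± 0.08 SE for Dbp (adjusted p = 0.0056) and 0.28 ± 0.05 SE for Tef (adjusted p = 6.8e-05). Dbp overlapped between the temperatures in G1 cells, where 37 °C replicate 3 at 38.8 CPM lay inside the range of 36.8 to 40.5 CPM at 39 °C. Per3 (0.57 ± 0.07 SE, adjusted p = 1.2e-06), Arntl (0.50 ± 0.11 SE, adjusted p = 7e-04) and Nr1d2 (0.45 ± 0.07 SE, adjusted p = 7e-06) also rose without overlap, while Per1 (0.10 ± 0.12 SE) and Cry2 (-0.03 ± 0.10 SE) did not pass. In G1 cells 7 members did not overlap, against 23.7% of all tested genes upwards.

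**Figure D2:**
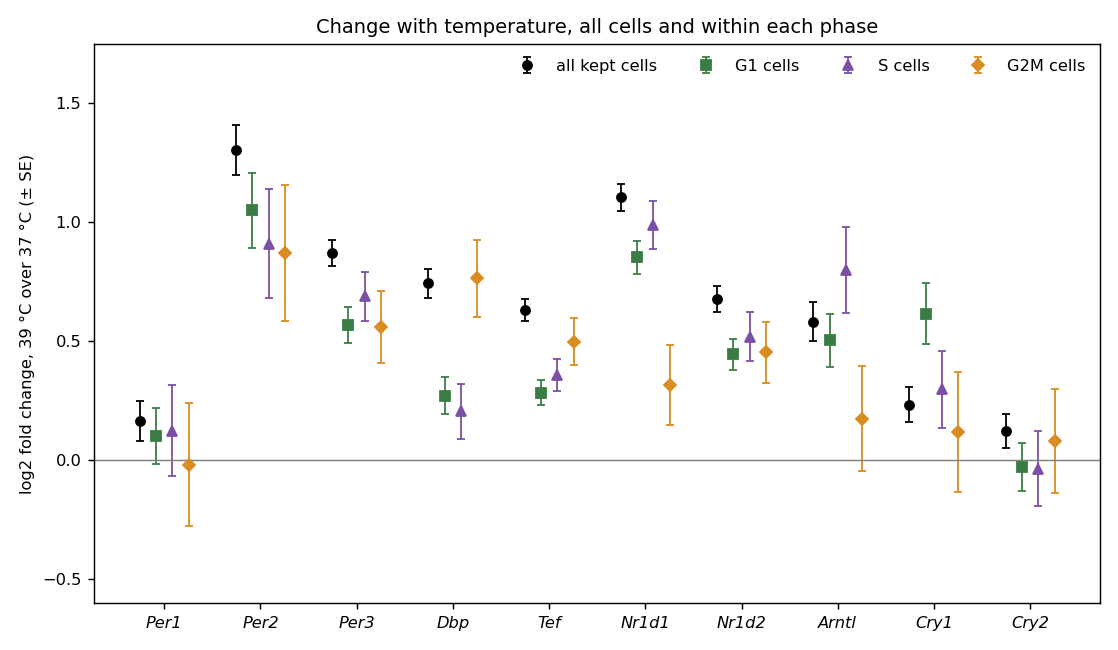
Log2 fold change (39 °C over 37 °C) of each clock gene with its standard error, over all kept cells (black circles) and within cells assigned to G1 (green squares), S (purple triangles) and G2M (orange diamonds). Points above the line at 0 are higher at 39 °C. Per2 lies between 0.87 and 1.30 in the 4 sets, while Per1 and Cry2 lie between -0.04 and 0.17.

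Within S cells, 6 of 10 members were higher and 0 lower at 39 °C (43.5% of 13740 genes called, 20.1% higher and 23.4% lower). Nr1d1 had the highest log2 fold change in S cells, 0.99 ± 0.10 SE (17.7 ± 1.5 to 35.0 ± 2.53 CPM, adjusted p = 1.6e-09). Per2 rose by 0.91 ± 0.23 SE, Arntl by 0.80 ± 0.18 SE, Per3 by 0.69 ± 0.10 SE, Nr1d2 by 0.52 ± 0.10 SE and Tef by 0.36 ± 0.07 SE on the log2 scale in S cells. Of these, Arntl overlapped, with 39 °C replicate 2 at 6.52 CPM beside 5.57 to 6.73 CPM at 37 °C, and the other 5 did not (17.8% of genes upwards). Dbp in S cells, at 20.7 ± 2.53 and 24.1 ± 1.72 CPM, did not pass (0.21 ± 0.11 SE, adjusted p = 0.15). It depended on how S cells were assigned: with phases scored within each library the change of Dbp in S cells was 0.79 (adjusted p = 1.4e-08) and that of Per1 was 0.46 (adjusted p = 0.0086), while the changes of Tef and Nr1d2 were 0.63 and 0.82. Without 37 °C replicate 3 the change of Dbp was 0.29 (adjusted p = 0.0456).

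Cells in G2M at 39 °C were few, 29 in replicate 1 and 466 in all. There, 5 of 10 members were higher and 0 lower (29.7% of 13802 genes called, 13.2% higher and 16.5% lower). Per2 rose by 0.87 ± 0.29 SE, Dbp by 0.76 ± 0.16 SE, Per3 by 0.56 ± 0.15 SE, Tef by 0.50 ± 0.10 SE and Nr1d2 by 0.45 ± 0.13 SE on the log2 scale in G2M cells, all 5 without overlap (12.6% of genes upwards). Nr1d1 overlapped in G2M cells, at 24.5, 21.8, 24.9 and 20.1 CPM at 37 °C and at 22.7, 43.6, 25.8 and 20.4 CPM at 39 °C (0.32 ± 0.17 SE, adjusted p = 0.16), so only replicate 2 stood high. Without 39 °C replicate 4, which held 187 of the 466 G2M cells, 3 members and 23.9% of genes were called, and Per2 (0.78, adjusted p = 0.10) and Per3 (0.35, adjusted p = 0.15) were not.

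**Figure D3:**
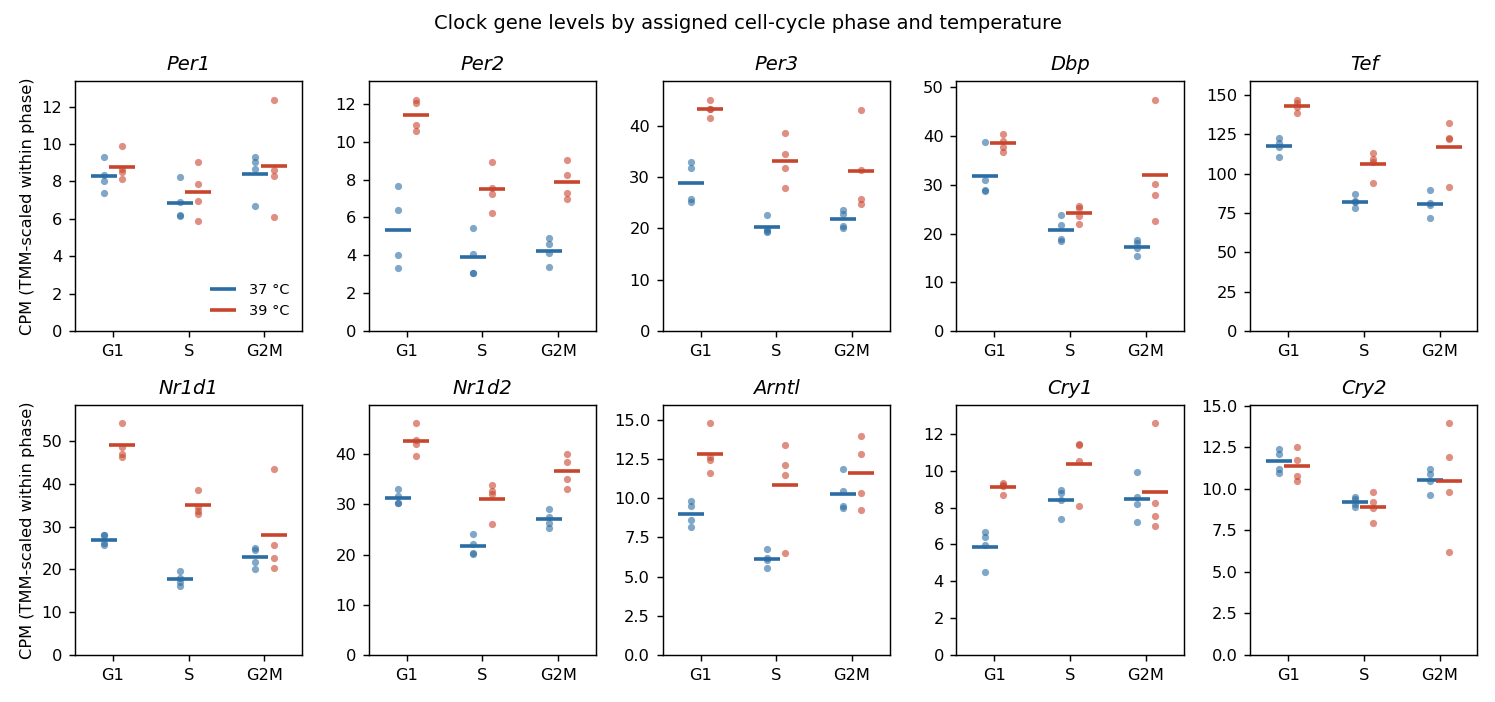
Level of each clock gene (CPM, TMM-scaled within a phase, linear axis from 0) in cells assigned to G1, S and G2M at 37 °C (blue) and 39 °C (red). Points are the 4 libraries and bars their means. At both temperatures the bars for Per3, Tef, Nr1d1 and Nr1d2 are higher in G1 than in S, and Cry1 at 37 °C is the other way round.

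The difference between the temperature effects of 2 phases was tested directly, with each library as a block. Between S and G1, 0 of 10 members differed at an adjusted p under 0.05, against 12.8% of 14296 genes. The differences (S minus G1, log2) ran from -0.32 for Cry1 (2 SE either side, -0.74 to 0.10, adjusted p = 0.38) to 0.30 for Arntl (-0.11 to 0.70, adjusted p = 0.41). Here too the assignment of phases mattered, since with phases scored within each library 5 members had a larger rise in S than in G1 (Per3, Dbp, Tef, Nr1d1 and Nr1d2), by 0.23 for Tef to 0.45 for Dbp, where 18.6% of genes differed. Between G2M and G1, a comparison added after the data were seen, 2 of 10 members differed against 7.69% of 14378 genes. The rise of Dbp was larger in G2M (0.50 ± 0.17 SE, adjusted p = 0.0436) and that of Nr1d1 was smaller (-0.52 ± 0.16 SE, adjusted p = 0.0258). Both calls were lost without 37 °C replicate 3 (0.43 for Dbp and -0.46 for Nr1d1), without 39 °C replicate 3 (0.53 and -0.48) or without 39 °C replicate 4 (0.49 and -0.35). That of Dbp was also lost without 37 °C replicate 2 (0.41) and without 39 °C replicate 1 (0.34), and Nr1d1 was at -0.83 without 39 °C replicate 2. Without 39 °C replicate 3, Tef was called in their place (0.32).

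Within 1 culture condition the clock genes differed between G1 and S cells of the same library. At 37 °C, 8 of 10 members were higher in G1 than in S and 1, Cry1, was lower (45.7% of 13992 genes called, 21.4% higher and 24.3% lower in G1). Dbp, at 20.5 ± 2.51 CPM in S and 31.4 ± 4.8 in G1 (log2 difference 0.61 ± 0.07 SE, adjusted p = 5e-10), and Nr1d1, at 17.5 ± 1.48 and 26.6 ± 1.27 CPM (0.60 ± 0.08 SE, adjusted p = 4.3e-09), had the highest differences. Arntl (0.54), Nr1d2 (0.53), Tef (0.51), Per3 (0.51), Per2 (0.47) and Cry2 (0.33) were also higher in G1. Per1 did not pass (0.27 ± 0.13 SE, edgeR adjusted p = 0.095). With phases scored within each library, Per1 was called higher in G1 at 37 °C (0.49, edgeR adjusted p = 0.00056). Cry1 was at 8.28 ± 0.697 CPM in S and 5.79 ± 0.941 in G1 and was lower in G1 in 4 of 4 libraries (-0.50 ± 0.14 SE, adjusted p = 0.0027). Some of these calls rested on single libraries: Per2 was at 0.13 without 37 °C replicate 1 (adjusted p = 0.67), Cry1 was at -0.36 without 37 °C replicate 3 (adjusted p = 0.058), and Cry2 was not called without replicate 2 or replicate 3 (0.31 and 0.28).

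At 39 °C, 6 of 10 members were higher in G1 than in S and 0 were lower (37.4% of 14511 genes called, 20% higher and 17.5% lower in G1). Dbp had the highest difference in this assignment of phases (24.5 ± 1.74 in S and 38.9 ± 1.53 CPM in G1, log2 difference 0.67 ± 0.09 SE, adjusted p = 4.3e-12), followed by Per2 (0.63), Nr1d1 (0.46), Nr1d2 (0.45), Tef (0.43) and Per3 (0.39). Cry1, at 10.5 ± 1.61 CPM in S and 9.20 ± 0.304 in G1, did not pass at 39 °C (-0.19 ± 0.16 SE, adjusted p = 0.38). With phases scored within each library the same 6 members were called, with smaller differences, and Dbp at 0.24 (adjusted p = 0.00057) no longer led. Per2 was then at 0.38, Nr1d1 at 0.31, Nr1d2 at 0.24, Tef at 0.22 and Per3 at 0.17. The median UMIs of cells in G1 were 8654 to 13029 per library at 37 °C and 6724 to 16798 at 39 °C.

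Per cell, the clock genes were sparse. To compare cells at 1 depth, each cell was thinned to 5000 UMIs, which left out 668 shallower cells at 37 °C and 1668 at 39 °C. Tef, the member seen in most cells, was found in 34.8, 32.8, 35.1 and 33.4% of cells at 37 °C and in 50.5, 47.7, 45.4 and 47.5% at 39 °C. The share with a UMI also rose for Nr1d1 (10.0% ± 0.742 to 18.7% ± 1.17), Per3 (10.6% ± 0.367 to 18.05% ± 1.42), Nr1d2 (12.1% ± 1.13 to 17.9% ± 1.49) and Dbp (9.89% ± 0.675 to 16.2% ± 2.05). For Arntl it was 3.74% ± 0.396 and 6.17% ± 1.00, and for Per2 2.40% ± 0.684 and 5.08% ± 0.661. In these 7 genes the groups did not overlap, against 23.2% of all tested genes upwards, and each reached the smallest p that 70 assignments of 8 libraries can give (two-sided exact permutation test, p = 0.0286, adjusted p = 0.0408 over the 10 members). Per1 (3.69% and 3.96%, exact permutation adjusted p = 0.4), Cry1 (4.00% and 4.38%, adjusted p = 0.107) and Cry2 (4.64% and 5.14%, adjusted p = 0.286) overlapped. Thinning is a random draw, and in a second draw, made after the data were seen, the same 7 were apart and so were Per1 and Cry1.

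**Figure D4:**
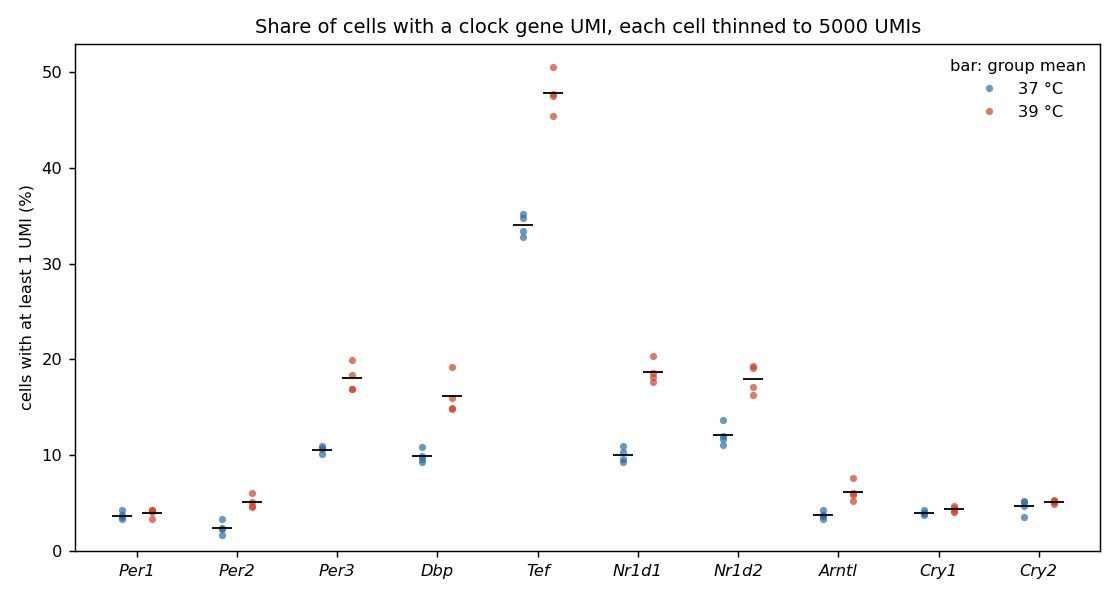
Share of cells (%) with at least 1 UMI of each clock gene after thinning every cell to 5000 UMIs, in the 4 libraries at 37 °C (blue) and the 4 at 39 °C (red), with bars for group means. Tef runs from 32.8 to 50.5%, and Per1, Cry1 and Cry2 overlap between the groups.

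Without thinning, at each library's own depth, 0 of 10 members were apart (3.5% of genes upwards), and Tef was then found in 52.3 to 68.1% of cells at 37 °C and in 56.7 to 81.9% at 39 °C. With thinning and within G1 cells, 7 members were apart (16.1% of genes upwards), now with Cry1 (2.87% ± 0.895 and 4.27% ± 0.362) and without Dbp (14.4% ± 1.40 and 16.98% ± 2.03). In the second draw 5 of these 7 were apart in G1 cells, without Cry1 and Arntl. In S cells, a setting added after the data were seen, 3 members were apart (Per3, Tef and Nr1d1; 13.4% of genes upwards), or 5 in the second draw, with Per2 and Nr1d2. In the first draw 0 of them passed after adjustment (exact permutation adjusted p = 0.0952). There is no second cell type in these cultures that lacks the clock genes, so no background share from free RNA can be given.

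At least 1 of the 10 members was found in 61.9% of thinned cells at 37 °C and 77.5% at 39 °C. At least 3 members were found in 6.05 to 7.99% of cells per library at 37 °C and in 15.2 to 20.5% at 39 °C. The variance of a gene's thinned count divided by its mean, which is 1 for pure counting, had a median over libraries of 1.22 for Dbp, 1.20 for Nr1d1 and 1.15 for Tef. It lay between 0.995 and 1.07 for the other 7. For Per1, Per2, Arntl, Cry1 and Cry2 the means were so low that the ratio can stay near 1 even where cells vary. It therefore says little about them. Per3 and Nr1d2 had means like those of Dbp and Nr1d1. In 39 °C replicate 4 these were 0.206 and 0.221 UMIs per thinned cell, beside 0.177 and 0.223. The ratios there were 1.03 for Per3 and 1.09 for Nr1d2, beside 1.20 for Dbp and 1.20 for Nr1d1. Pearson's r between members over the cells of a library had medians from -0.03 to 0.08 over the 45 pairs, with Tef and Nr1d2 at the top. In counts this sparse such an r is a description only.

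Counts over the other genes of the clock pathway stand beside the 31.5% of all genes called higher and the 30.5% called lower over all cells. Of 12 other core clock factors 11 were tested over all cells, 5 were higher, 3 lower and 3 did not pass, with a median log2 fold change of 0.13. Arntl2, a paralogue of Arntl, rose from 5.19 ± 0.174 to 9.37 ± 1.53 CPM (0.87 ± 0.10 SE, adjusted p = 3.5e-07). The E-box repressors Bhlhe41 (0.67 ± 0.09 SE, adjusted p = 1.5e-06) and Bhlhe40 (0.36 ± 0.05 SE, adjusted p = 8.7e-06) also rose, and Nfil3, which opposes Dbp and Tef at D-boxes, fell by 0.24 ± 0.06 SE (adjusted p = 0.0027). The called genes below the level set for naming were Rora, Hlf and Npas2, picked after their values were seen. Rora, the activator that competes with REV-ERB receptors, rose from 1.22 ± 0.380 to 4.61 ± 0.422 CPM (1.91 ± 0.16 SE, adjusted p = 4.4e-09), and by 1.06 ± 0.21 SE in G1 cells. Hlf, a PAR-type bZIP factor like Dbp and Tef, fell from 0.715 ± 0.174 to 0.340 ± 0.0519 CPM (-1.04 ± 0.29 SE, adjusted p = 0.0038), and Npas2, a paralogue of Clock, fell from 0.213 ± 0.0430 to 0.0890 ± 0.0425 CPM (-1.18 ± 0.49 SE, adjusted p = 0.042). Hlf (-0.34) and Npas2 (-1.12) did not pass in G1 cells. Within G1 cells the counts for this list were 5 higher, 1 lower and 5 not passed of 11, against 24.8% and 22.4% of all genes.

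Of 14 kinases, ligases and partners of clock proteins, 6 were higher, 6 lower and 2 did not pass, with a median log2 fold change of 0.05. Timeless (fell by 0.92 ± 0.06 SE) and Tipin (fell by 0.74 ± 0.05 SE), which in mammals act at replication forks, and the PER-binding protein Sfpq (fell by 0.80 ± 0.05 SE) were lower. These falls went with the shares of S and G2M cells given above, and the part of those shares in them was not tested. Within G1 cells 4 of the 14 genes in this list were higher, 6 lower and 4 did not pass. Of all genes tested in G1 cells, 24.8% were higher and 22.4% lower. Among 9 tested clock-controlled output genes 4 were higher, 3 lower and 2 did not pass over all cells. Within G1 cells 2 of them were higher, 1 lower and 6 did not pass. Klf9 (0.73 ± 0.05 SE) and Usp2 (0.60 ± 0.10 SE) rose, while Por, the electron donor of cytochromes P450 (fell by 0.40 ± 0.06 SE), and Wee1, a kinase that holds cells before mitosis (fell by 0.36 ± 0.05 SE), were lower.

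The counts of the lists that follow also stand beside 31.5% of all tested genes called higher and 30.5% called lower over all cells. Among G1 cells these shares were 24.8% and 22.4%. Of 9 tested genes of the glucocorticoid response, which include Per1, 4 were higher, 4 lower and 1, Per1, did not pass. The counts were the same in G1 cells. Fkbp5 (fell by 1.20 ± 0.07 SE, 13.3 ± 0.575 to 5.77 ± 0.398 CPM), Mt2 (fell by 1.04 ± 0.11 SE) and Tsc22d3 (fell by 0.90 ± 0.12 SE), targets of the glucocorticoid receptor, were lower. Klf9, given above among the output genes, is in this list too and was higher. Of 13 immediate-early genes of serum and cyclic AMP signals, 11 were higher, 1 lower and 1 did not pass over all cells. In G1 cells 9 of them were higher, 1 lower and 3 did not pass. Their median log2 fold change was 0.62 over all cells and 0.38 within G1 cells. Fos rose from 9.90 ± 3.16 to 24.1 ± 2.49 CPM (1.28 ± 0.14 SE, adjusted p = 1.1e-07), Junb by 1.21 ± 0.06 SE, Nr4a1 by 1.18 ± 0.12 SE and Egr3 by 0.74 ± 0.08 SE. Of 9 cold and heat responsive genes, 1 was higher, 4 lower and 4 did not pass over all cells. In G1 cells 1 of them was higher, 2 were lower and 6 did not pass. The cold-induced RNA-binding protein gene Rbm3 fell from 429 ± 48.8 to 169 ± 20.0 CPM (log2 fold change -1.35 ± 0.08 SE, adjusted p = 3.8e-11). The chaperone genes Hsph1 (fell by 0.61 ± 0.05 SE) and Hsp90aa1 (fell by 0.49 ± 0.06 SE) were lower and Dnajb1 was higher (0.37 ± 0.05 SE).

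The genes whose levels followed Per2 most closely over the 8 libraries (Pearson's r of log2 CPM) were Rpe at 0.999, Dvl3 at 0.998 and Foxk1 at 0.997. The 8 libraries fall into the 2 temperatures, and 2081 of the 8358 genes compared had an r over 0.9, so these values describe genes that differ between the temperatures as Per2 does. No member fell over all cells, so there is no counterpart for a fall.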

How the data were processed

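The authors aligned reads of 3′ single-cell libraries (Chromium V3) to mm10 with Cell Ranger 3.0.1 and deposited, per library, a matrix of raw UMI counts per gene and cell, not normalized. Cells were kept by the study's limits, whose upper limit on genes stands in for a doublet caller. Phases were assigned with Seurat 5.3.0 over all kept cells together (42 of 43 S and 52 of 54 G2M genes found). Counts were summed per library, and genes averaging 1 count or more per library were tested in edgeR 4.0.16 (R 4.3.3; TMM, glmQLFit, glmQLFTest) with temperature alone, or with the library as a block between phases. Adjusted p-values are Benjamini-Hochberg over all tested genes, and SEs are implied by the test. Shares of cells, after a random thinning with a fixed seed, were compared by exact permutation tests (Python 3.11.15). Up to 4 genes per list were named by size of change among those called, at 5 CPM or more and without overlap. A gene that this rule would name is not reported here. Positions are from GENCODE on GRCm38. Counting intervals would cover counting error only and none are given. The code was tested on simulated data. The members and lists were chosen with earlier results of these data known.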

Additional observations from a re-analysis of the deposited data

Results flagged for a closer look

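In 37 °C replicate 2, Cry1 was at 8.49 CPM over all kept cells, away from the other 3 libraries at 37 °C (7.48 to 7.61 CPM) by Dixon's criterion for 4 values. Likewise, Per3 in S cells was at 22.6 CPM in 37 °C replicate 3 and at 19.3 to 19.8 CPM in the other 3 libraries. Both genes stayed higher at 39 °C over all cells without the library named. About 1 in 20 groups is marked by chance, and 100 groups and contrasts were looked at. The temperature effect differed between G2M and G1 cells for Dbp (0.496 on the log2 scale, adjusted p = 0.0436) and for Nr1d1 (-0.521, adjusted p = 0.0258) by edgeR's interaction term, and both calls depended on single libraries.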

How the results depend on the processing

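Over all kept cells, the 20 alternatives (3 scalings, 2 gene filters, DESeq2 1.42.0, the replicate block, 5 choices of cells and each library left out) gave 7 to 9 called members, all higher, against 8. No scaling moved the median of all genes by over 0.1. The replicate numbers did not pair the libraries (r from -0.120 to 0.254, and 2 of 8 libraries correlated best with their own number): with the replicate number as a block 8 members were called over all cells and 8 in G1, 6 in S and 5 in G2M cells. Leaving out 1 library at a time gave 8 called members in G1, 6 to 7 in S, 3 to 5 in G2M, 7 to 9 and 6 between G1 and S at 37 and 39 °C, 0 for S against G1, 0 to 2 for G2M against G1, and 7 to 8 shares apart. Shares apart were 0 without thinning, 3 in S cells and 9 in a second random thinning (5 in G1 and 5 in S cells), and phases scored per library gave 5 for S against G1. The cause was not tested.

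Changes of sign came mostly in values near 0 (log2), and the exceptions are given last. Per1 in G2M cells (-0.02) was 0.0168 with RLE, 0.0339 with filterByExpr, 0.0202 with DESeq2, 0.0131 with the replicate block and -0.118 to 0.106 with 1 library left out, where Cry1 ran from -0.180 to 0.233 and Cry2 from -0.0515 to 0.162. Leaving out 1 library put Cry2 at -0.0798 to 0.0043 in G1 cells and at -0.0813 to 0.0041 in S cells. For S against G1 the range was -0.134 to 0.123 for Per1, -0.123 to 0.00728 for Dbp and -0.0941 to 0.0288 for Cry2, and Cry2 was 0.0302 with RLE and 0.0213 with filterByExpr. For G2M against G1 it was -0.216 to 0.136 for Per3, -0.0613 to 0.04996 for Nr1d2 and -0.00259 to 0.185 for Cry2. With phases scored per library, Cry2 was 0.0983 in G1, 0.156 in S and 0.0515 for S against G1. For S against G1, Per2 was -0.16 with phases scored over all cells and 0.173 with phases scored per library. Dbp there went from -0.06 to 0.445 and was called (adjusted p = 0.00025 by edgeR's interaction term).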
